A study of Capra hircus with 10 samples.

Results

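The family of miR-15, miR-16, miR-195 and miR-497 was examined in the mammary gland of lactating goats. Its members were chosen by name among the mature miRNA counted in each library, as miR-15a, miR-15b, miR-16a, miR-16b, miR-195 and miR-497 with either arm of the precursor (the 5p or the 3p strand), and 12 of the 1804 miRNA listed were members. The libraries came from 10 goats of the Alpine breed, near peak lactation about 48 days after kidding, which had all received the same hay and concentrate diet until the experiment. For the last 48 h, the 4 Control goats (libraries L01, L04, L06 and L10) ate it ad libitum, while the other 6 goats were food deprived (FD) with free access to water. The FD libraries were L02, L03 and L05, and L07 to L09. Each goat gave 1 small RNA library of whole mammary tissue, so the libraries are biological replicates of a mixture of cell types.

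The family is one of the most widely expressed of mammalian miRNA families. Its members are best known as brakes on cell division and survival, through the repression of mRNA of cyclins, cyclin-dependent kinases and the anti-apoptotic factor BCL2. A miRNA recognizes its targets mainly through its seed, the bases 2 to 8 from the 5′ end, so members with one seed are expected to share many targets. The genes lie in pairs in mammalian genomes, and a pair is transcribed as one primary RNA. miR-16 is also abundant in blood cells, erythrocytes included.

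The deposited mature sequences of the 6 5p arms are shown because the seed defines the family, and bases 2 to 8 are in capitals.
miR-15a-5p: tAGCAGCAcataatggtttgtgg
miR-16a-5p: tAGCAGCAcgtaaatattggag
miR-15b-5p: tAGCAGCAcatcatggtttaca
miR-16b-5p: tAGCAGCAcgtaaatattgggg
miR-195-5p: tAGCAGCAcagaaatgttgg
miR-497-5p: aGCAGCACactgtggtttgtac
The seed AGCAGCA was carried by 5 of the 6, and by 7 of all 1804 miRNA. The entry for miR-497-5p starts at the A of the same run, without a base before it, so its bases 2 to 8 read GCAGCAC, a seed that no other listed miRNA had. miR-16a-5p and miR-16b-5p are identical over their first 20 bases, and the single difference between them is A21G, counted from the 5′ end of miR-16a-5p. Reads too short to reach base 21 fit both, so how the reads were divided between miR-16a-5p and miR-16b-5p is uncertain.

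In the RefSeq gene table of goat assembly ARS1.2, a different build from the CHIR_1.0 genome used for the counts, all 6 of the 6 precursor genes were found. MIR15A and MIR16A are neighbours on chromosome 12, MIR15B and MIR16B on chromosome 1 within the gene SMC4, and MIR195 and MIR497 on chromosome 19 between C19H17orf49 and BCL6B. In each of the 3 pairs, 0 other genes are listed between the partners.

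The deposited counts summed to between 4495512 and 7506955 in Control and between 5674119 and 9842009 in FD libraries. Values are given below as normalized read counts, that is, each deposited count over its library's median-of-ratios size factor. The family took from 0.432% to 0.597% of all counts in Control libraries (mean 0.528% ± 0.0694, SD, n = 4) and from 0.540% to 0.962% in FD libraries (mean 0.705% ± 0.145 SD, n = 6). It was a score over the chosen members and was not tested.

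miR-16a-5p alone held 68.8% ± 2.17 of the family's counts over the 4 Control libraries and 69.8% ± 1.2 over the 6 FD libraries (SD). Over all 10 libraries its mean of 28604 normalized counts was 6 times that of the next member, miR-497-5p, at 4769. miR-16b-5p (3749) and miR-15a-5p (2752) followed, then miR-195-5p (590) and miR-15b-5p (364). In each of the 10 libraries the 5p arms kept this order, although the ranges over libraries overlapped between miR-497-5p and miR-16b-5p, between miR-16b-5p and miR-15a-5p, and between miR-195-5p and miR-15b-5p. The most abundant 3p arm was miR-195-3p with a mean of 255 normalized counts, below miR-15b-5p in 10 of 10 libraries with overlapping ranges. The other 3p arms were low, at 45.2 for miR-15b-3p, 34.6 for miR-16b-3p, 18.5 for miR-16a-3p, 3.53 for miR-15a-3p and 1.47 for miR-497-3p, and miR-15b-3p was above miR-16b-3p in 7 of the 10 libraries. Capture differs between sequences in small RNA libraries, so these orders are of reads and not of molecules.

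The question of the diets was whether 48 h without food changes the level of these miRNA in the gland. The 6 5p arms had higher means in FD libraries, with log2 fold changes (FD over Control) from 0.27 to 0.44 and a median of 0.39, against -0.000 over all 490 miRNA tested, but none of them passed the test. Of the 3p arms 4 were tested, with log2 fold changes from 0.19 to 0.60, and one of these, miR-16a-3p, entered the test through a single FD library only. An adjusted p under 0.1 in edgeR's quasi-likelihood test was given to 0 of the 10 tested members, beside 0% of all miRNA tested, and the members' adjusted p-values ran from 0.269 to 0.494. An unadjusted p under 0.05 was found for 2 of the 10 members (miR-16a-5p and miR-16b-5p), beside 15.7% of all miRNA tested, and 7.55% counting those higher in FD libraries alone. With DESeq2's Wald test, 0 of the 10 had an adjusted p under 0.1, beside 4.9% of all miRNA, and 4 had an unadjusted p under 0.05, beside 17.3%. In limma-voom these numbers were 0 and 2, beside 0 of the 490 miRNA and 12.2% of them. In simulated counts with 200 of the 490 miRNA changed 1.5-fold, edgeR's test recovered 42.5% of the changed ones. The median fold of the tested members was 1.31, so not passing does not show that their levels were equal. A log2 fold change above 0 was found for 50% of all miRNA tested, and one of at least 0.19, the lowest of the members, for 31%. The 10 members were counted in the same libraries, come in pairs from shared transcripts and in part share reads, so they are not 10 separate observations. In whole tissue, a change in the number of cells of a type and a change of a miRNA per cell cannot be told apart.

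In the miR-15a/16a pair, miR-16a-5p had 18210, 26442, 24236 and 27021 normalized counts in Control libraries L01, L04, L06 and L10. FD libraries ran from 24624 to 39488 with a median of 31350. L01 was the lowest of all and 5 of the 6 FD libraries lay above every Control library, but L02 did not, so the diets overlapped. The log2 fold change of miR-16a-5p was 0.39 (standard error 0.155, adjusted p = 0.269 in edgeR's quasi-likelihood test). Its partner miR-15a-5p had 1638, 2844, 2328 and 2695 normalized counts in the same Control libraries, and from 2299 to 3816 in FD libraries (median 2905). Only 3 of the 6 FD libraries were above every Control library, and the log2 fold change was 0.32 (standard error 0.197, adjusted p = 0.437). Without L01 it was 0.17, and that of miR-16a-5p was 0.27. Without L08 they were 0.19 and 0.25.

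In the miR-15b/16b pair, miR-16b-5p had 2578, 3097, 3009 and 3856 normalized counts in Control libraries L01, L04, L06 and L10, and from 3333 to 5412 in FD libraries (median 4073). The highest Control library, L10, stood above 2 of the 6 FD libraries. The log2 fold change was 0.39 (standard error 0.173, adjusted p = 0.304). miR-15b-5p, the least abundant 5p arm, had 247, 350, 298 and 295 normalized counts in Control and from 312 to 584 in FD libraries (median 383). L08 was the highest in both miRNA, and 4 of the 6 FD libraries were above every Control library in each. For miR-15b-5p the log2 fold change was 0.44 (standard error 0.206, adjusted p = 0.320), which was 0.24 without L08, as was that of miR-16b-5p.

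In the pair of miR-195 and miR-497, miR-497-5p had 3938, 4987, 3264 and 4702 normalized counts in Control libraries L01, L04, L06 and L10, and from 3531 to 6310 in FD libraries (median 5484). Here L06 and not L01 was the lowest library, and the FD library L02 was the next lowest. The log2 fold change was 0.27 (standard error 0.179, adjusted p = 0.457), and 0.13 without L08. miR-195-5p had 471, 522, 382 and 574 normalized counts in Control and from 448 to 826 in FD libraries (median 662). In both, 4 of the 6 FD libraries were above every Control library. For miR-195-5p the log2 fold change was 0.42 (standard error 0.201, adjusted p = 0.323), and 0.28 without L08. The spread between goats of one diet was from 14.1% to 24.9% of the mean for the 6 5p arms.

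**Figure D1:**
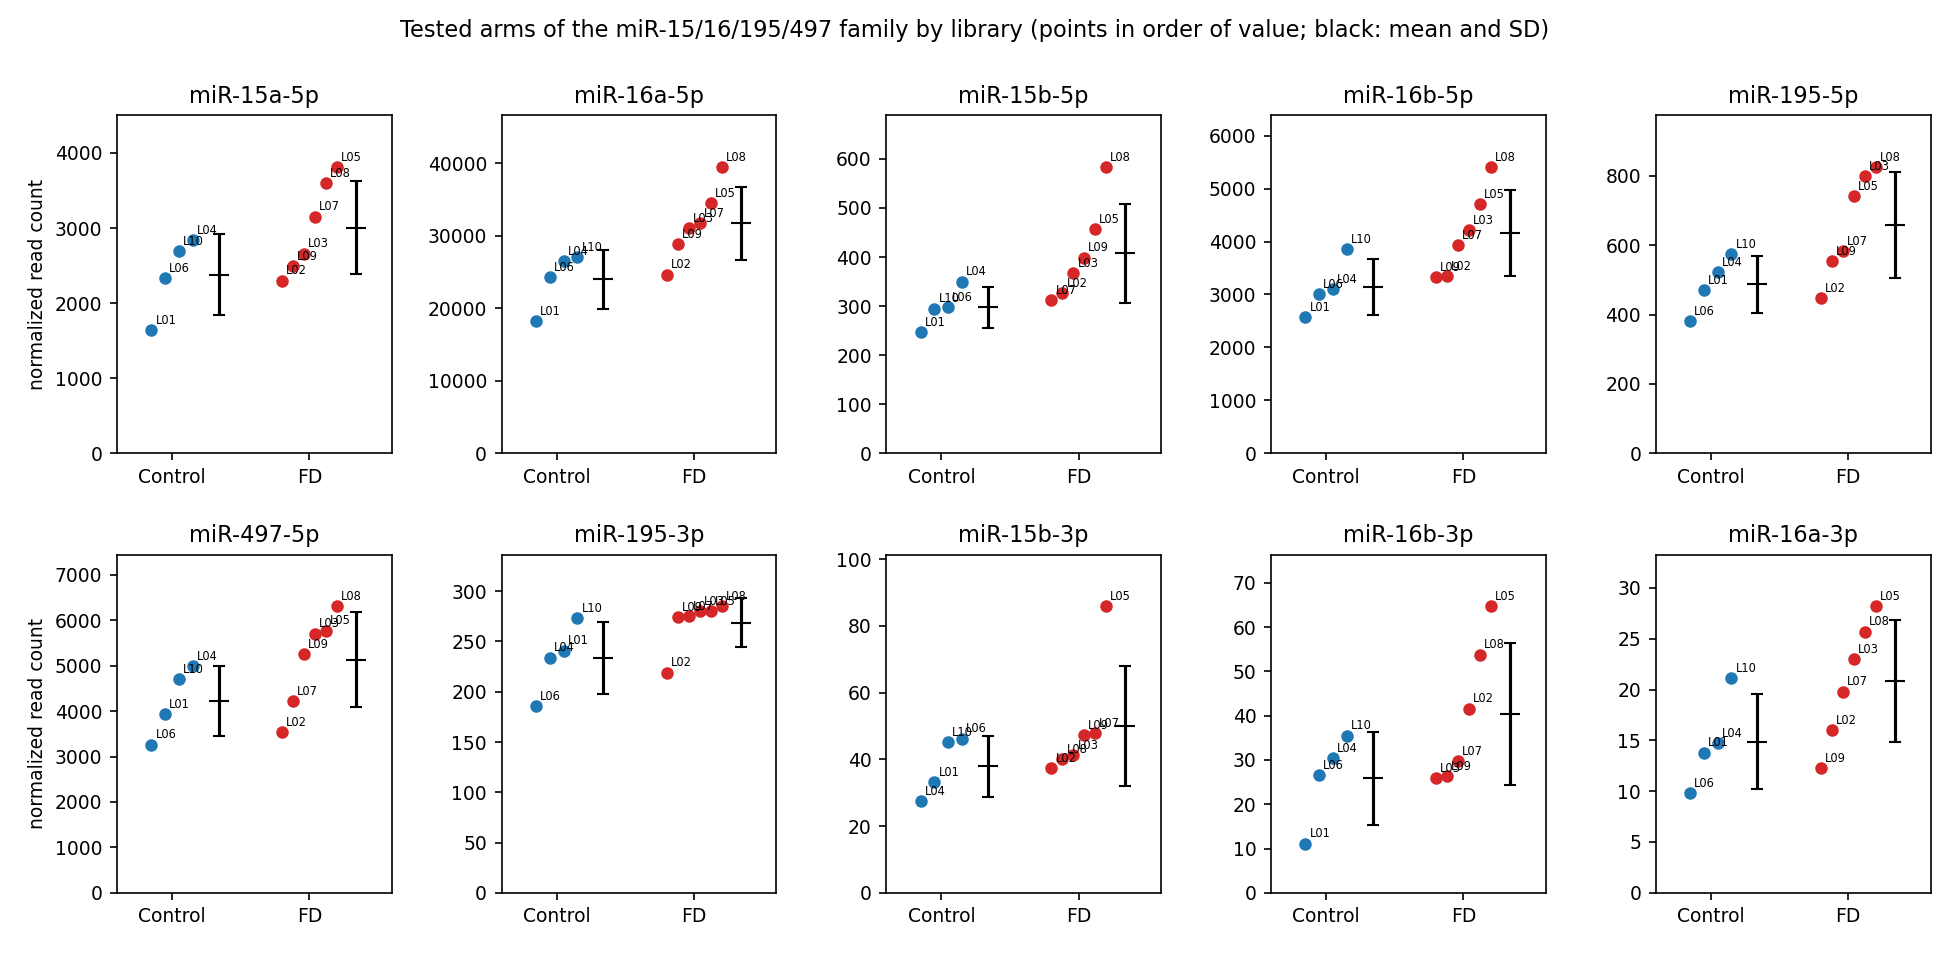
Normalized read counts (vertical axes, from 0) of the 10 tested arms in the 4 Control (blue) and 6 FD (red) libraries, with points placed in order of value and black bars for the mean and SD. The FD points lie higher on average in every panel, and in every panel at least 1 FD point lies below the highest Control point.

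Of the 3p arms, the strands usually degraded after processing of the precursor, 4 passed the threshold of 28 on the highest normalized count. miR-195-3p had 241, 234, 186 and 273 normalized counts in Control libraries L01, L04, L06 and L10, and from 219 to 285 in FD libraries (median 278). Apart from L02, the FD libraries were close together and above every Control library, but L09 (274) was barely above Control library L10 (273). The log2 fold change was the smallest of the members, 0.19 (standard error 0.149, adjusted p = 0.494), and 0.11 without L08 or 0.12 without L06. miR-15b-3p had 33.2, 27.5, 46.2 and 45.1 normalized counts in Control and from 37.4 to 85.9 in FD libraries (median 44.3), and the log2 fold change was 0.37 (standard error 0.272, adjusted p = 0.471). The single value of 85.9 in L05 set the upper end, the other FD libraries being at 47.9 or less, and without L05 the log2 fold change was 0.17. Without Control library L04 it was 0.21, and 3 of the 6 FD libraries lay above every Control library.

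The deposited 3p arms of miR-16b and miR-16a, unlike their 5p arms, differ in bases 2 to 8, shown in capitals. The entry of miR-16a-3p is 28 bases long, against 21 or 22 for the family's other 3p arms. Its bases 2 to 8 depend on where that entry starts, so they may not be its seed.
miR-16b-3p: aCCAATATtattgtgctgcttt
miR-16a-3p: aAATTATCtccagtattaactgtgctgc
miR-16b-3p had 11.1, 30.4, 26.6 and 35.5 normalized counts in Control and from 25.9 to 64.7 in FD libraries (median 35.7). Its log2 fold change was the largest of the members, 0.60 (standard error 0.365, adjusted p = 0.437), and was 0.35 without L01. miR-16a-3p ran from 9.8 to 21.1 in Control and from 12.3 to 28.2 in FD libraries (log2 fold change 0.45, standard error 0.322, adjusted p = 0.457). It passed the threshold through the FD library L05 alone, so it could only have been tested with a high FD value. miR-15a-3p and miR-497-3p did not pass, with at most 8 and 3 counts in a library. They had 12 and 7 counts over the Control libraries and 25 and 8 over the FD libraries, too few to show a difference at this depth.

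No tested member separated the diets completely, 0 of 10 having every FD library above the highest Control library, beside 1.22% of all miRNA, and 0 having every FD library below the lowest, beside 1.02%. The same few libraries set the ends of the ranges. L08 and L05 were among the highest 2 libraries for 9 and 8 of the 10 tested members, and L01 or L06 was the lowest of all 10 libraries for 9 of them. L08 also had the largest total count and L01 and L06 the smallest totals, while L05 had the smallest total of the FD libraries. The part of depth in these levels was not tested. Without L08 the log2 fold changes of the 5p arms were 0.13 to 0.28 and without L01 they were 0.17 to 0.40. In both cases 0 tested members had an unadjusted p under 0.05 in edgeR's test, beside 9.64% of all miRNA tested without L08 and 9.47% without L01.

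Whether the diets changed the balance within a precursor or a pair was tested with ratios of counts in the same library, which need no normalization. The 5p arm made up over 98.6% of the arms' counts in each library for mir-15a, mir-16a, mir-16b and mir-497. The balance was less one-sided for mir-15b, with 88.6% ± 2.87 over the 4 Control libraries and 88.9% ± 3.2 over the 6 FD libraries (SD). mir-195 stood apart, with 67.6% ± 1.2 over the 4 Control libraries and 70.5% ± 3.53 over the 6 FD libraries (SD). Its 3p arm is shown because it is the most abundant of the family's 3p arms and has another seed, with bases 2 to 8 in capitals.
miR-195-3p: cCAATATTggctgtgctgctc
For miR-195, the log2 ratio of 5p over 3p ran from 0.97 to 1.54 and was higher by 0.20 in FD libraries (standard error 0.11, exact permutation p = 0.162, two-sided over 210 splits, adjusted p = 0.81 over the 10 ratios tested). For the other 5 precursors the difference was between -0.25 (miR-16b, standard error 0.32) and 0.82 (miR-497, standard error 0.59), with exact permutation p-values from 0.262 to 0.91. The value for miR-497 rests on 3 counts or fewer of the 3p arm in each library.

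**Figure D2:**
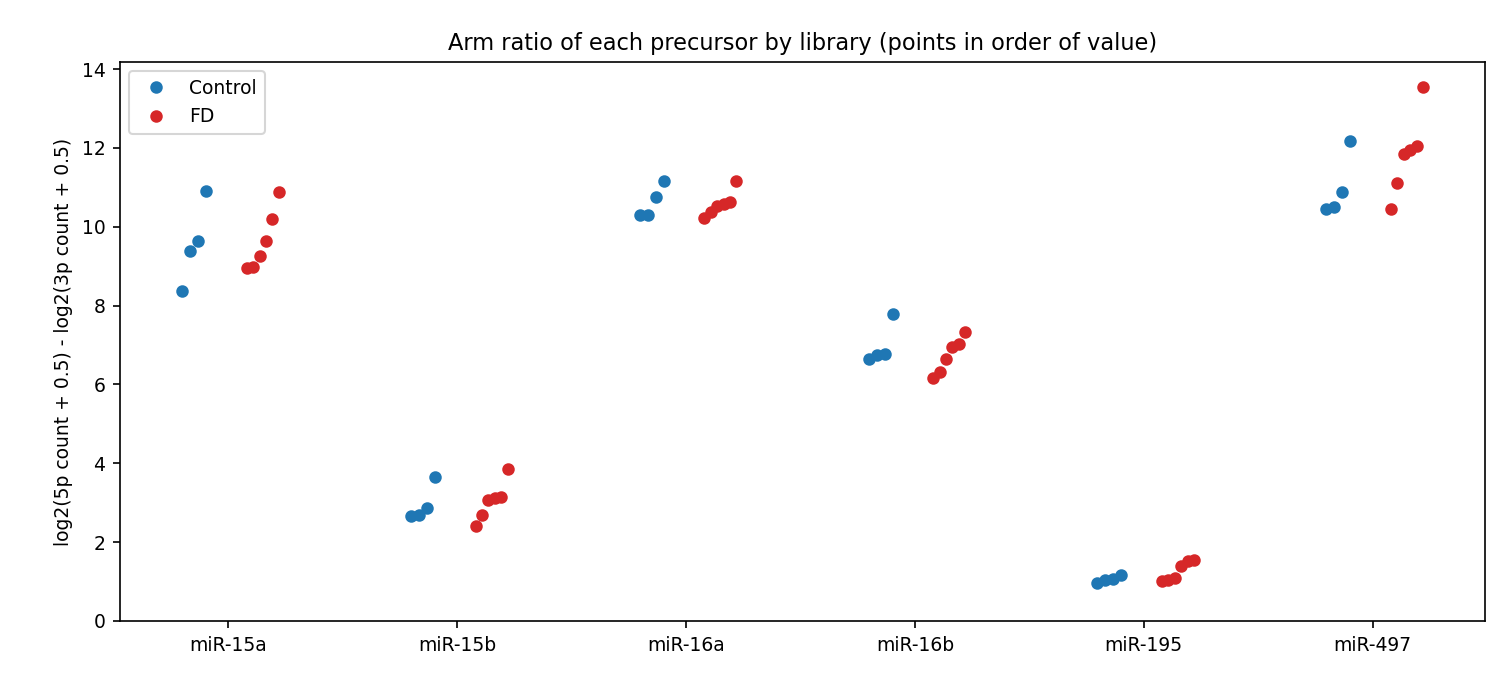
Log2 ratio of the 5p over the 3p count, with 0.5 added to each, for the 6 precursors (horizontal axis) in Control (blue) and FD (red) libraries, points in order of value. miR-195 lies between 0.97 and 1.54 and miR-15b between 2.40 and 3.86, while the other precursors lie above 6.

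The ratio of the partners of a pair was taken in each library. miR-15a-5p had between 0.0858 and 0.111 counts for each count of miR-16a-5p over all 10 libraries, miR-15b-5p between 0.0764 and 0.120 for each of miR-16b-5p, and miR-195-5p between 0.105 and 0.140 for each of miR-497-5p. The differences of the mean log2 ratio between diets (FD minus Control) were -0.06 (standard error 0.08, exact permutation p = 0.471), 0.03 (standard error 0.15, p = 0.852) and 0.14 (standard error 0.08, p = 0.129), with adjusted p-values from 0.81 to 0.986. miR-16b-5p, which is not a partner of miR-16a-5p, had between 0.115 and 0.143 counts for each of miR-16a-5p. The mean log2 ratio of miR-16b-5p over miR-16a-5p differed by -0.0038 (standard error 0.08, exact permutation p = 0.986). None of the ratios passed the test, which with these goats does not show that they were equal.

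Across the 10 libraries, the log2 normalized counts of the partners varied together. The Pearson correlation was 0.936 for miR-15a-5p and miR-16a-5p (Spearman 0.867), 0.815 for miR-15b-5p and miR-16b-5p (Spearman 0.685) and 0.921 for miR-195-5p and miR-497-5p (Spearman 0.879). The two-sided permutation p-values were 0.00021, 0.00402 and 0.00023 for Pearson and 0.00213, 0.0353 and 0.00155 for Spearman, and after adjustment over the 3 pairs the highest were 0.00402 and 0.0353. Leaving out the 2 libraries most distant from the median gave a Pearson correlation of 0.880 for miR-15a-5p and miR-16a-5p and 0.842 for miR-195-5p and miR-497-5p (exact permutation p of 0.00456 and 0.00903). For miR-15b-5p and miR-16b-5p it was 0.484 without L01 and L08 (exact permutation p = 0.225), so that relation rests on these libraries. Taken as deviations from their diet's mean, the correlations were 0.933, 0.691 and 0.911. Members of different pairs were correlated as well, from 0.658 for miR-15a-5p and miR-497-5p to 0.938 for miR-16a-5p and miR-16b-5p, the pair of sequences that can share reads. All the pairs share libraries and size factors, so the p-values do not show a relation particular to partners.

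**Figure D3:**
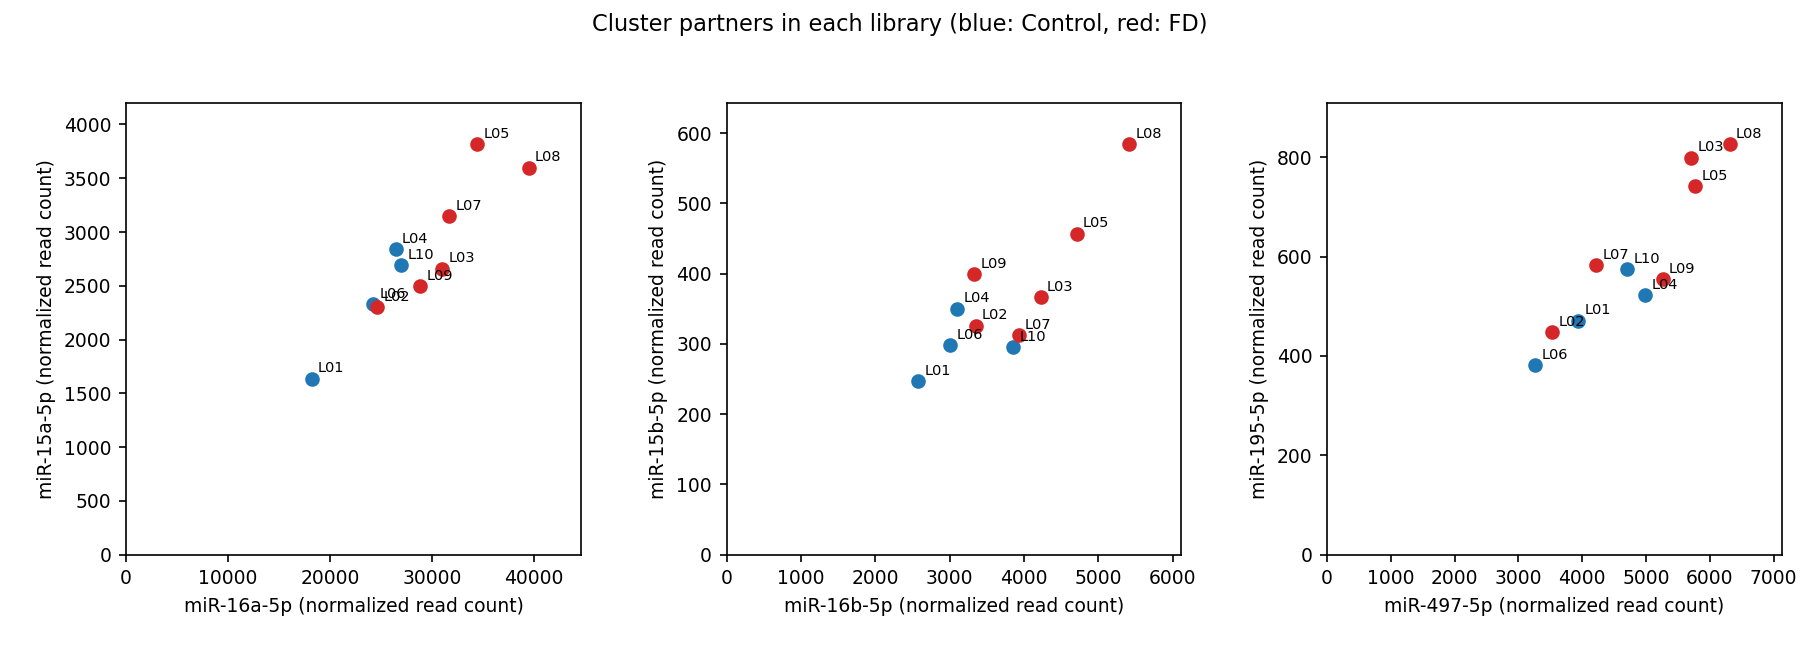
Normalized read counts of the 3 cluster pairs, one point per library (blue Control, red FD), both axes from 0. Points lie close to a line in the outer panels, and L01 and L08 lie at the ends of the middle one.

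The precursors of miR-103, miR-107, miR-424 and miR-503 each have 1 arm with the run AGCAGC at its start, as the family's 5p arms do, and these arms are often grouped with the family. miR-103 and miR-107 lie within genes of pantothenate kinases, and miR-424 and miR-503 are made from a shared transcript. All 21 bases of miR-107-3p match the first 21 of miR-103-3p, so how reads that short were divided between them is uncertain. The sequences are shown because they share the first bases with the family but not the rest, with bases 2 to 8 in capitals.
miR-103-3p: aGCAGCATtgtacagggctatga
miR-107-3p: aGCAGCATtgtacagggctat
miR-424-5p: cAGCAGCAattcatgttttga
Of the 8 arms of these precursors 4 were tested, the 3 shown above and miR-424-3p, which lacks the run. The means of miR-424-5p and miR-424-3p were higher and those of miR-103-3p and miR-107-3p lower in FD libraries, and 0 of the 4 had an adjusted p under 0.1 in edgeR's test, 0 an unadjusted p under 0.05, and 0 either in DESeq2's. miR-103-3p had 58074 ± 4296 normalized counts over the 4 Control libraries and 53066 ± 11620 over the 6 FD libraries (SD), and its log2 fold change was -0.15 (standard error 0.157), from -0.24 without L02 to -0.05 without L05. For miR-107-3p the log2 fold change was -0.07 (standard error 0.153), which was 0.03 without L06 and 0.0059 without L05. For miR-424-5p, with the seed of miR-15a, it was 0.92 (standard error 0.532) and for miR-424-3p 0.86 (standard error 0.643). The FD libraries were far apart, from 253 to 1853 normalized counts of miR-424-5p, and without L05, the highest, the log2 fold changes were 0.51 and 0.24. In limma-voom that of miR-424-3p was 0.39. miR-103-5p, miR-107-5p, miR-503-5p and miR-503-3p had at most 22 counts in a library. Whether any of these differed from the family in its response was not tested.

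One predicted miRNA also carried the seed AGCAGCA. It came from 2 of the 1070 predicted precursors, on CHIR_1.0 chromosome 15 from 78179595 to 78179645 on the plus strand and chromosome 27 from 8311868 to 8311916 on the minus strand, with miRDeep2 scores of 4.7 and 4.4 on the reads of all libraries together. Its mature sequence, the same at both places, is shown for comparison with those of the family.
chr27_34395-5p: cAGCAGCAgctctggcct
It is 18 bases long and had 25 counts over all libraries, 8 in Control and 17 in FD, against 310854 for miR-16a-5p.

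The levels of miRNA that mark other cells of the gland are given beside those of the family. The summed 5p arms of the family ran from 27083 to 39143 normalized counts in Control and from 34578 to 56220 in FD libraries, where 5 of the 6 exceeded every Control library. The erythroid list (miR-451 and miR-144, 4 arms of which 3 were tested) ran from 3750 to 6061 in Control and from 5961 to 8756 in FD libraries. In this list 3 of 3 were higher, beside 50% of all miRNA tested, and 1 had an unadjusted p under 0.05, beside 15.7%. Its main marker, miR-451-5p, was well above 0 in all libraries, with 4957 ± 1017 normalized counts over the 4 Control libraries and 6855 ± 1010 over the 6 FD libraries (SD), while miR-451-3p had a single count in 1 library. Within the FD goats, L02 had the most erythroid miRNA (8756) and the fewest family 5p counts (34578). L08 had the fewest erythroid miRNA (5961) and the most family counts (56220). L09, L07, L03 and L05 stood in the same rising order in both. They had 40911, 43880, 44767 and 49937 family 5p counts and 6287, 6457, 7114 and 7451 erythroid counts. The relation between the levels was not tested.

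The endothelial list (both arms of miR-126) ran from 117544 to 144955 in Control and from 136542 to 197735 in FD libraries, with 2 of 2 higher and both with an unadjusted p under 0.05. Its sum was mainly miR-126-5p, with 116635 of a mean of 133853 in Control and 145894 of 168383 in FD libraries. The leukocyte list (miR-146a, miR-146b, miR-150, miR-155 and miR-223, 7 of 8 arms tested) ran from 35952 to 68420 and from 42674 to 132239. In it 6 were higher and 1 lower, and 4 had an unadjusted p under 0.05. Its sum was mainly miR-146b-5p, with 44427 of a mean of 57069 in Control and 58006 of 75109 in FD libraries. The unadjusted p of miR-146b-5p was 0.36 in edgeR's test. The stromal list (miR-143, miR-145, miR-199a, miR-199b and miR-214, 8 of 8 tested) ran from 690407 to 928572 and from 579433 to 1136233, with 6 higher and 2 lower. Its sum was mainly miR-143-3p, with 722366 of a mean of 756168 in Control and 790695 of 823815 in FD libraries. The epithelial list (miR-141, miR-200, miR-429 and miR-205, 10 of 11 tested) was present in every library, in keeping with the label of mammary gland, from 221821 to 245827 in Control and from 173950 to 243961 in FD libraries, with 2 higher and 8 lower. The 2 higher were the arms of miR-205 (log2 fold changes 0.41 and 0.20), and the 8 lower were arms of miR-141, miR-200 and miR-429. The largest part of the epithelial sum was miR-141, with 128297 of a mean of 231599 in Control and 120582 of 212725 in FD libraries. The unadjusted p of miR-141 was 0.378 in edgeR's test. L08 and L05, the libraries with the most family counts, had the fewest epithelial counts. In the epithelial list 2 had an unadjusted p under 0.05, and in the stromal list 0. The counts in all these lists stand beside 15.7% of all miRNA tested with an unadjusted p under 0.05 and 50% higher in FD libraries. None of the markers had an adjusted p under 0.1 in edgeR's test, beside 0% of all miRNA tested. DESeq2 gave adjusted p-values of 0.0587 to miR-126-3p and miR-223-3p and 0.0887 to miR-223-5p, beside 4.9% of all miRNA under 0.1. The part of the cell composition in the family's levels was not tested. At 0 in at least 1 library were miR-451-3p, miR-155-3p and miR-429-5p, minor arms with at most 5 counts.

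**Figure D4:**
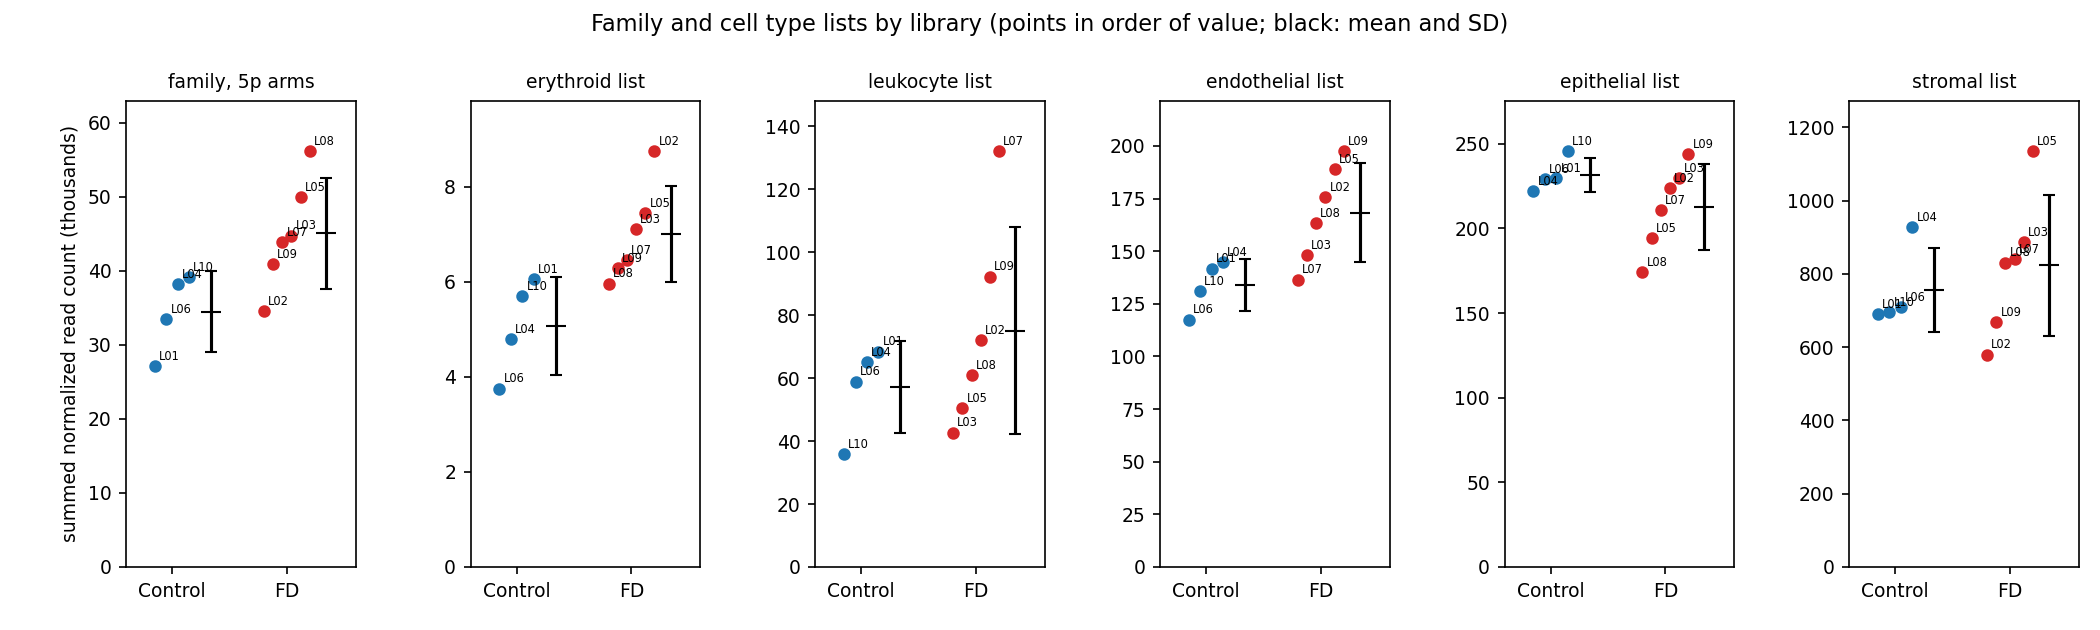
Summed normalized read counts (vertical axes from 0, scaled as labelled) of the family's 5p arms and of the 5 cell type lists in Control (blue) and FD (red) libraries, points in order of value, black bars for the mean and SD. L08 is the highest library in the first panel and the lowest FD library in the erythroid and epithelial panels.

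Among the 480 tested miRNA outside the family, the 5 whose log2 normalized counts followed the summed 5p arms most closely over the 10 libraries were miR-222-3p (Pearson 0.963, Spearman 0.964), miR-130a-3p (0.957 and 0.927), chr24_31823-3p (0.929 and 0.879), miR-150 (0.922 and 0.927) and miR-93-5p (0.922 and 0.952). Leaving out the 2 libraries most distant from the family's median, these Pearson correlations were 0.938, 0.925, 0.789, 0.883 and 0.896. They were picked as the highest of 480 and share libraries and size factors with the family, so no p is given. The means of all 5 were higher in FD libraries. They were picked for following a sum that was itself higher in FD libraries, so this is not a separate result. For example, miR-130a-3p had 2237 ± 486 normalized counts over the 4 Control libraries and 3061 ± 708 over the 6 FD libraries (SD). The adjusted p-values of the 5 were from 0.237 to 0.4 in edgeR's test.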

How the data were processed

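Small RNA libraries from the mammary gland of 10 goats were compared by diet, as given by the treatment labels. The authors removed adapters (Cutadapt), filtered reads on size, and mapped and counted them with miRDeep2 on the CHIR_1.0 genome and miRBase entries, and the counts used are the deposited reads per mature miRNA. The authors' score is the miRDeep2 score of each predicted precursor, and the deposited read counts of precursors are over all libraries. The labels name CASAVA 1.8.2. Whether a read that fits several precursors was counted at each is not given in the sources used here. The deposited normalized columns were not used. No molecular identifiers were used, so counting error is only part of the error.

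Counts were tested with edgeR 4.0.16 (TMM, glmQLFit and glmQLFTest, two-sided, no covariates) on the 490 miRNA whose highest count divided by DESeq2's size factor (0.7139 to 1.672) was above 28, with Benjamini-Hochberg adjustment over all 490 and a threshold of 0.1. The standard error is the size of the log2 fold change divided by the square root of F. Ratios used a pseudocount of 0.5 and an exact permutation test, with a threshold of 0.05, correlations log2(normalized count + 1) and 100000 permutations. The alternatives were DESeq2 1.42.0, limma-voom (limma 3.58.1), other scalings and filters, a pseudocount of 1, other denominators of the family's share and each library left out. The scripts were tested on simulated data. R 4.3.3 and Python 3.11.15 were used. The miRNA named are the members, the seed group, the markers needed and the 5 most similar in pattern. The members, lists and rules were chosen with earlier results of these data known. miR-142, miR-486, miR-322 and miR-646 were not analysed here. No 2 libraries of one diet were copies of each other (the lowest chi-square over its degrees of freedom was 102.5).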

Additional observations from a re-analysis of the deposited data

Results flagged for a closer look

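Of 42 groups of values examined for a library far from the others, 4 were picked out, where chance alone gives about 1 in 20. The FD library L05 had 85.9 normalized counts of miR-15b-3p, against 37.4 to 47.9 in the other FD libraries. The FD library L02 had 219 normalized counts of miR-195-3p, against 274 to 285. The log2 ratio of miR-16b-5p over miR-16b-3p was 7.78 in Control library L01, where miR-16b-3p had 8 counts, against 6.65 to 6.78 in the other Control libraries. The log2 ratio of miR-195-5p over miR-497-5p was -3.25 in the FD library L09, against -2.98 to -2.84 in the other FD libraries.

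The predicted chr27_34395-5p, with the seed of the family, was in no comparison between diets and had 25 counts over all libraries, where 3 counts are taken as the upper limit for a miRNA with none seen.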

How the results depend on the processing

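In 20 alternative settings for the diet comparison, the log2 fold changes of the tested members were above 0 wherever they were fitted, from 0.11 to 0.72, and 0 had an adjusted p under 0.1 (lowest 0.191). miR-16a-3p was fitted in 15 of the 20. Counts of members with an unadjusted p under 0.05 were less steady, at 4 in DESeq2, with library totals and without a filter (beside 17.3%, 16.3% and 9.87% of all miRNA), 1 with filterByExpr and with known miRNA only (14.8% and 14.8%), 0 with upper quartile scaling (15.7%), and 0 to 5 with 1 library left out (0 without L01 or L08, beside 9.47% and 9.64%, and 5 without L02, beside 19.9%). The number of all miRNA past 0.1 was 24 in DESeq2, 5 without a filter, 1 with known miRNA only, and 0 to 1 with 1 library left out. The ratio of the family's share of counts (FD over Control) was 1.24 to 1.4. The diet difference in the log2 ratio of miR-16b-5p over miR-16a-5p changed sign, at -0.06 to 0.04 with 1 library left out. So did those of 5p over 3p for miR-15a (-0.31 to 0.54), miR-15b (-0.09 to 0.3), miR-16a (-0.17 to 0.13) and miR-16b (-0.36 to 0.02), that of miR-15b-5p over miR-16b-5p (-0.08 to 0.11) and the log2 fold change of miR-107-3p (-0.19 to 0.03). The cause was not tested. The pseudocount of 1 changed no sign or call. No paired analysis was made because the diets were given to different goats. Few counts limit what could be seen for the 3p arms other than miR-195-3p.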
